A study of Mus musculus with 15 samples.

Results

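Meg3, Rian and Dlk1 are 3 imprinted genes of the Dlk1-Dio3 domain on mouse chromosome 12, and they are described here as 3 of the 19938 genes measured by a liver array. A gene was taken from the probe sets annotated with its symbol alone, and each of the 3 had 1 such probe set. Meg3 was selected on its measured signal, which was lower in DEHP-treated wild-type livers than in those given corn oil, and Rian and Dlk1 because they are its neighbours. The wild-type treatment difference is therefore given as a description, with no test, and so is every Meg3 comparison that uses the wild-type arrays.

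Livers of 15 male mice aged 7.5 months ± 2.5 weeks were measured on 1 Affymetrix array each. There were 3 PPARα-null mice dosed with DEHP, 4 PPARα-null controls, 4 wild-type mice dosed with DEHP and 4 wild-type controls. DEHP, di(2-ethylhexyl) phthalate, is a plasticizer that activates the nuclear receptor PPARα in rodent liver. It was given by gavage at 1150 mg/kg/day in corn oil for 4 daily doses, and the controls received the corn oil. The null mice carried the Pparatm1Gonz allele in every cell and were 129S4/SvJae, while the wild-type mice were 129S1/SvlmJ, so genotype and substrain cannot be told apart. The study asked which liver responses to DEHP involve PPARα and which involve the nuclear receptor CAR, to which phenobarbital-like inducers are linked.

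An imprinted gene is read from the chromosome of one parent only. In the Dlk1-Dio3 domain the protein-coding genes Dlk1, Rtl1 and Dio3 are read from the paternal chromosome, and the noncoding RNAs Meg3, Rian and Mirg, with the microRNAs and small nucleolar RNAs embedded in or between them, from the maternal one. Methylation of an intergenic element upstream of Meg3 sets which side is read. In adult mouse liver the maternal noncoding RNAs of the domain are known to be raised by phenobarbital through CAR, and Dlk1, which encodes a membrane protein related to Notch ligands, is largely shut down after birth.

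The start-site windows of Meg3 and Dlk1 are printed because the first is the gene with the large differences and the second its neighbour of the opposite parental origin, for which no comparison was called. Both are RefSeq sequence of build GRCm38.p6 on the plus strand, from 250 bases before to 50 bases after the annotated start, written 5′ to 3′. Capitals mark motif matches. The Meg3 window is chr12:109540746-109541045 and the Dlk1 window is chr12:109452573-109452872.
Meg3: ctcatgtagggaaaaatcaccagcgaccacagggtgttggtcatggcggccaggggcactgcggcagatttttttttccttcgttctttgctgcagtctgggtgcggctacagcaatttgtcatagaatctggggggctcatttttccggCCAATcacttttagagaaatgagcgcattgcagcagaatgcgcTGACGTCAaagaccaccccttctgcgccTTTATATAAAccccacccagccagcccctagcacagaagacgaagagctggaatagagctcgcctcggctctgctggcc
Dlk1: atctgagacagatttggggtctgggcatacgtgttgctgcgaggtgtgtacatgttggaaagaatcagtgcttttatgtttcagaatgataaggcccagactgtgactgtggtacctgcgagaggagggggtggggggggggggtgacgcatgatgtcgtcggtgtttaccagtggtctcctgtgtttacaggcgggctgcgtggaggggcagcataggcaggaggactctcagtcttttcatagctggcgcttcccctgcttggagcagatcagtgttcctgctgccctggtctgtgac

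Both strands were searched for 6 motifs. The Meg3 window holds a cAMP response element, TGACGTCA, whose first base lies at -57 from the start and which occurs in 1.79% of 32851 mouse promoter windows of this length. It also holds the TATA box letters TATAAA on both strands, overlapping each other, with first bases at -25 and -29, a motif found in 13.6% of windows. The CCAAT box, CCAAT, lies at -100 and is found in 37.4% of windows. Neither the nuclear receptor half-site AGGTCA (16.3% of windows) nor its direct repeats DR1 (0.0396%) and DR4 (0.0152%) occurred in the windows of Rian, Dlk1 or this Meg3 start. A second annotated Meg3 start has AGGTCA on the minus strand at -141. These matches are letters in a window and say nothing of binding in these livers.

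The arrays were on a common scale. Median intensity lay between 44.4 and 47.53, and arrays of one group correlated at 0.988 to 0.992 over all probe sets. Signal of the Ppara probe set was lower in null livers, with a difference of -0.69 ± 0.12 (log2, SE) with corn oil (limma adjusted p = 0.00645), and it remained measurable there, at a mean log2 of 9.09. The labels do not say where that probe set lies relative to the deleted part of the gene. Hepatocyte markers were bright in every array. The lowest value of any probe set in any array was 1.77, so a value above 0 does not show that a cell type was present. The deposited table has no detection calls, so the background of dim probe sets is unknown.

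Meg3 is a long noncoding RNA that starts the maternal transcript series of the domain. Its intensity was 691.35, 674.82 and 562.3 in the null DEHP livers and 937.72, 736.29, 700.3 and 498.23 in the null corn oil livers. In wild-type livers it was 132.44, 162.14, 113.23 and 196.44 with DEHP and 440.97, 296.64, 297.72 and 318.89 with corn oil. Every wild-type DEHP liver read below every wild-type corn oil liver, and every null liver read above every wild-type liver. The null DEHP and null corn oil livers overlapped. Mean log2 intensity was 9.32 ± 0.16 (SD, n = 3) in null DEHP, 9.45 ± 0.38 (n = 4) in null corn oil, 7.21 ± 0.35 (n = 4) in wild-type DEHP and 8.38 ± 0.27 (n = 4) in wild-type corn oil livers. From high to low the order of the groups was null corn oil, null DEHP, wild-type corn oil and wild-type DEHP, and only the first pair of neighbours in that order overlapped.

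The Meg3 difference between DEHP and corn oil was -1.18 ± 0.19 (log2, SE) in wild-type livers, 0.443 of the corn oil level. This is the difference for which the gene was chosen. In null livers, whose arrays took no part in the choice, it was -0.13 ± 0.20, with a 95% interval from -0.56 to 0.30 and a limma adjusted p of 0.864. No change of Meg3 with DEHP was called in null livers. The interval does not reach the wild-type difference, but that difference chose the gene, so no test is read from the 2 together. Null livers exceeded wild-type livers by 2.11 ± 0.20 (log2) under DEHP, 4.33-fold, and by 1.07 ± 0.19 with corn oil, 2.10-fold. The null minus wild-type difference of the DEHP differences was 1.04 ± 0.28 (log2). These last 3 values share the wild-type arrays with the choice of the gene and carry no test.

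**Figure D1:**
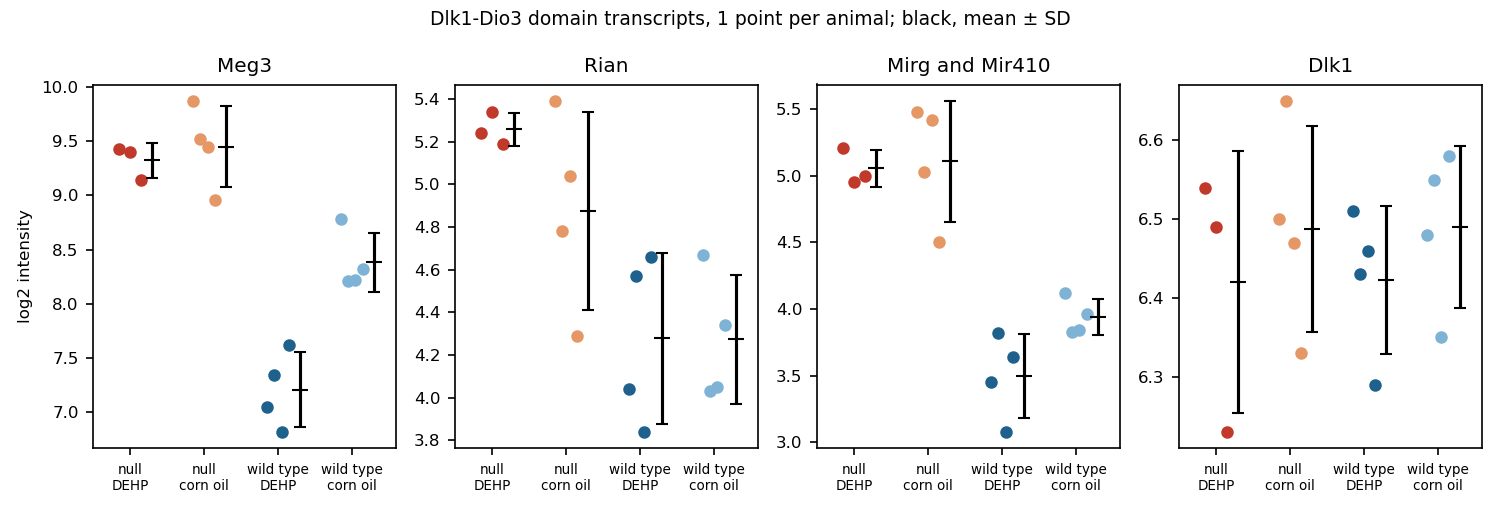
Log2 intensity (vertical axes, each with its own range) of Meg3, Rian, the probe set annotated to both Mirg and Mir410, and Dlk1 in each animal, by group. Points are animals, and black marks are mean ± SD. Meg3 and the Mirg and Mir410 probe set are higher in all null livers than in all wild-type livers and lowest with DEHP in wild type, whereas the 4 groups overlap for Dlk1.

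Rian, the next long noncoding RNA downstream and the host of small nucleolar RNAs, was dim. Its intensity was 37.72, 40.44 and 36.63 in the null DEHP livers and 41.99, 27.45, 32.88 and 19.55 in the null corn oil livers. In wild-type livers it was 16.46, 23.7, 14.29 and 25.25 with DEHP and 25.47, 16.35, 16.56 and 20.25 with corn oil. All null DEHP livers read above all wild-type livers, with either treatment, while the null corn oil livers overlapped every other group. Mean log2 intensity was 5.26 ± 0.07 (SD, n = 3), 4.87 ± 0.46 (n = 4), 4.28 ± 0.40 (n = 4) and 4.27 ± 0.30 (n = 4) in null DEHP, null corn oil, wild-type DEHP and wild-type corn oil livers.

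Rian was higher in null than in wild-type livers under DEHP, by 0.98 ± 0.23 (log2, SE), 1.97-fold (limma adjusted p = 0.0128). Of the 2 members tested in this comparison it was the one called, where 10.7% of all genes were called. Without the null DEHP animal of highest Rian signal (40.44) the difference was 0.94 ± 0.27 and the adjusted p was 0.0627. That fit called 1019 genes in this comparison, in place of 2133. With corn oil and no animal left out, the Rian genotype difference was 0.60 ± 0.22. It was not called (adjusted p = 0.238), where 1.19% of all genes were called. DEHP against corn oil gave 0.38 ± 0.23 in null livers (95% interval -0.11 to 0.88, adjusted p = 0.554), and 0.471% of all genes were called there, none of them a member. In wild-type livers the Rian difference was 0.00 ± 0.22, beside -1.18 ± 0.19 for Meg3 in the same livers. In wild-type livers 1 of the 3 members, Meg3, was lower with DEHP without overlap, as were 5.77% of all genes. The choice of Meg3 fixes that count, and nothing is read from it. Between genotypes under DEHP the groups of Rian did not overlap, higher in null livers, as for 11.0% of all genes, and those of Dlk1 overlapped.

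A further probe set is annotated to both Rian and the small nucleolar RNA AF357355 and cannot be assigned to one of them. It read 69.63, 67.78 and 69.18 in null DEHP, 86.08, 63.91, 84.97 and 55.98 in null corn oil, 39.83, 51.18, 48.58 and 41.79 in wild-type DEHP and 81.48, 51.51, 46.08 and 54.42 in wild-type corn oil livers. Null DEHP and wild-type DEHP livers did not overlap, with a difference of 0.61 ± 0.19 (log2, SE) that was not called over all probe sets (limma adjusted p = 0.0691). Its difference between DEHP and corn oil was -0.34 ± 0.17 in wild-type livers, with overlapping groups.

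Dlk1, the paternally read coding gene, had nearly the same signal everywhere. Its intensity was 92.82, 90.08 and 75.1 in null DEHP, 90.38, 100.58, 88.8 and 80.26 in null corn oil, 91.37, 86.37, 88.24 and 78.2 in wild-type DEHP and 89.34, 93.78, 81.42 and 95.68 in wild-type corn oil livers. All 4 groups overlapped, so their order carries no meaning. The null minus wild-type difference was 0.00 under DEHP (95% interval -0.20 to 0.19, limma adjusted p = 0.987) and 0.00 with corn oil (-0.18 to 0.18, adjusted p = 0.996). DEHP against corn oil gave -0.07 ± 0.09 (log2, SE) in null livers (-0.26 to 0.13, adjusted p = 0.845) and -0.07 ± 0.09 in wild-type livers. The intervals between genotypes lie below the null minus wild-type differences of Meg3 and, under DEHP, of Rian. The interval for DEHP in null livers includes the Meg3 difference there, -0.13.

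Within groups, Meg3 and Rian varied together from animal to animal. After each group's mean was removed, their log2 intensities correlated at Pearson r = 0.942 and Spearman rho = 0.904 over the 15 arrays, and at r = 0.902 without the 2 arrays farthest from the Meg3 median. Among 19937 other genes Rian had the highest such r with Meg3. Without removal of the group means, r was 0.633 over the 7 null animals and 0.397 over the 8 wild-type animals, where Meg3 differed between treatments and Rian did not, and without the 2 farthest animals these became -0.486 and -0.25. Meg3 and Dlk1 had r = 0.164 with group means removed, 0.678 over the null animals (0.965 without the 2 farthest) and 0.154 over the wild-type animals (0.18 without). Meg3 and Rtl1, the paternally read coding gene between Meg3 and Rian, had r = 0.785 with group means removed, and 0.619 without the 2 farthest. The order of these values thus depends on which animals and which deviations are used. The points share their arrays and the scaling of each array, and the values are descriptions with no test.

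**Figure D2:**
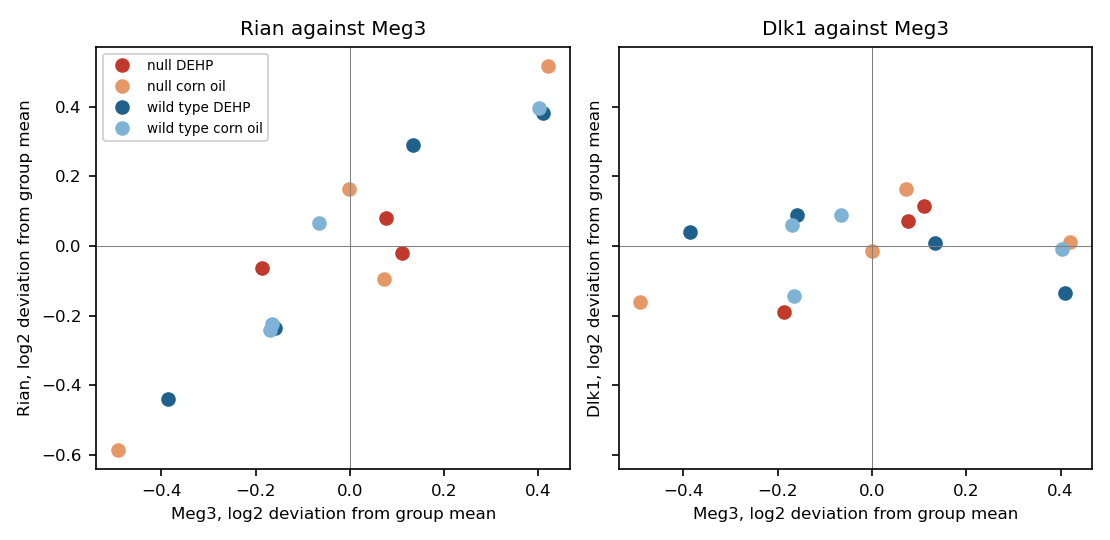
Deviation of each animal from its group mean (log2 intensity) for Rian (left) and Dlk1 (right) on the vertical axes against that of Meg3 on the horizontal axes, 1 point per animal, coloured by group. The Rian points rise with Meg3 (r = 0.942), and the Dlk1 points do not line up with it (r = 0.164).

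The remaining transcripts of the domain were then examined. From Dlk1 to Dio3 the array had 45 other genes with a probe set of their own, which were 40 microRNA genes, 3 small nucleolar RNA genes, Rtl1 and Dio3. This list was drawn by position after values of these probe sets had been seen, so its counts are given without a list test. Under DEHP 13 of the 45 were higher in null than in wild-type livers at an adjusted p below 0.05 and 0 were lower, where 5.09% of all genes were called higher. In 22 of the 45 every null DEHP liver read above every wild-type DEHP liver, against 11.0% of all genes, and 40 had a difference above 0, against 56.8%. The median difference was 0.21 (log2), beside 0.02 over all genes.

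With corn oil the genotype difference was smaller. There 2 of the 45, Mir300 and Mir382, were higher in null livers at the same threshold, where 0.642% of all genes were called higher. The median was 0.13 (log2), beside -0.01 over all genes, and 35 of 45 had a difference above 0, against 46.8%. DEHP against corn oil gave 0 calls among the 45 in null livers, with a median of 0.00 (log2), where 0.471% of all genes were called, so a count of 0 is near the background. In wild-type livers there were also 0 calls, where 3.86% of all genes were called. The wild-type median was -0.13, and 8 of the 45 had a difference above 0, against 45.0% of all genes. The wild-type contrast is the one that chose Meg3, and nothing further is read from those last counts.

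**Figure D3:**
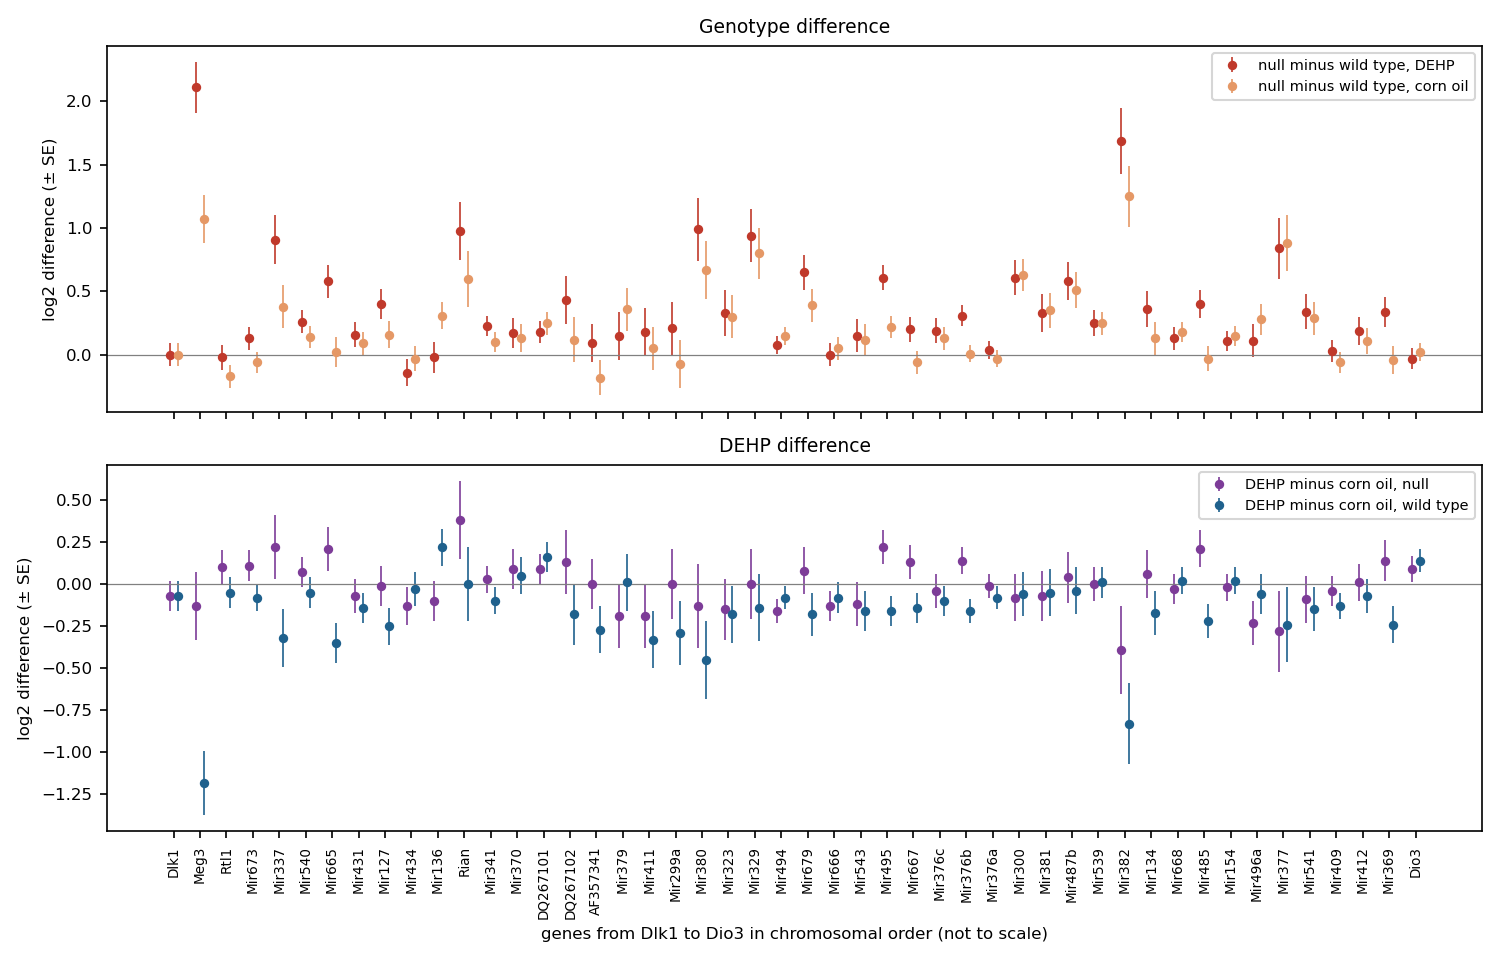
Log2 differences (± SE) of the 48 genes from Dlk1 to Dio3 in chromosomal order, not to scale. The upper panel gives null minus wild type with DEHP and with corn oil, and the lower panel DEHP minus corn oil in null and in wild-type livers. Meg3 and Mir382 have the highest genotype differences under DEHP (2.11 and 1.69), and Dlk1, Rtl1 and Dio3 lie close to 0.

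The 13 microRNA genes called under DEHP were Mir337, Mir665, Mir127, Mir380, Mir329, Mir679, Mir495, Mir376b, Mir300, Mir487b, Mir382, Mir485 and Mir377. For 6 of them the call was kept whichever of the 7 DEHP animals was left out. The corn oil animals, which share the estimate of the spread, were not left out in turn. Their mature RNAs (RefSeq, GRCm38.p6, 5′ to 3′, 1 per arm of the hairpin) are shown because these calls were kept in each of those 7 fits. Capitals mark the seed, bases 2 to 8, by which a microRNA pairs with its targets.
miR-337-5p: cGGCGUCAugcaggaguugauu
miR-337-3p: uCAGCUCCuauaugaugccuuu
miR-329-5p: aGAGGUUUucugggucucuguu
miR-329-3p: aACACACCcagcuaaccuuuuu
miR-679-5p: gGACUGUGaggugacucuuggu
miR-679-3p: aGCAAGGUccuccucacaguag
miR-495-5p: gAAGUUGCccauguuauuuuucg
miR-495-3p: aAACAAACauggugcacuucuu
miR-300-5p: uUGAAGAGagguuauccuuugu
miR-300-3p: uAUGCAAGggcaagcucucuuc
miR-382-5p: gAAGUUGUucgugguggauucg
miR-382-3p: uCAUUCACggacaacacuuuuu
None of these seeds was shared with another mature RNA among the 114 of the domain. The array labels long RNA and its probe sets for microRNA genes do not tell hairpin, host transcript and mature RNA apart.

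Mir382 differed most among the microRNA genes. Its intensity was 44.12, 31.46 and 36.34 in null DEHP and 61.75, 58.04, 51.0 and 30.14 in null corn oil livers. In wild-type livers it was 9.38, 18.49, 7.99 and 12.34 with DEHP and 21.77, 17.23, 23.49 and 19.63 with corn oil. Every null liver read above every wild-type liver, and the 2 wild-type groups overlapped, at 18.49 with DEHP and 17.23 with corn oil. Null minus wild type was 1.69 ± 0.26 (log2, SE) under DEHP (limma adjusted p = 0.000625) and 1.25 ± 0.24 with corn oil (adjusted p = 0.014). The corn oil call was lost when the highest null corn oil animal (adjusted p = 0.0556) or the lowest wild-type corn oil animal (0.054) was left out.

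The probe set annotated to both Mirg, the last long noncoding RNA of the domain, and Mir410 was measured too. It read 37.06, 30.99 and 31.98 in null DEHP and 44.66, 32.78, 42.93 and 22.57 in null corn oil livers, and 10.96, 14.11, 8.44 and 12.43 in wild-type DEHP and 17.36, 14.21, 14.29 and 15.58 in wild-type corn oil livers. All null livers read above all wild-type livers, and all wild-type DEHP livers below all wild-type corn oil livers. Null minus wild type was 1.56 ± 0.21 (log2, SE) under DEHP (limma adjusted p over all probe sets = 0.000985) and 1.17 ± 0.20 with corn oil (adjusted p = 0.0167). The wild-type DEHP difference was -0.44 ± 0.20. It is given without a test, and nothing is read from it, because that contrast chose Meg3. In null livers the DEHP difference was -0.05 ± 0.21 and was not called (adjusted p = 0.961).

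The other 5 microRNA genes with a kept call had null minus wild-type differences under DEHP of 0.61 to 0.94 (log2). Mir337 averaged 5.95 ± 0.11 in null DEHP (SD, n = 3) and 5.04 ± 0.10 in wild-type DEHP livers (n = 4), with no overlap. Mir329 averaged 4.95 ± 0.27 and 4.01 ± 0.15 in the same groups. Mir495 was close to the low end of the array, at 2.60 ± 0.05 in null DEHP and 1.99 ± 0.13 in wild-type DEHP livers. Mir300, the second gene called with corn oil, differed there by 0.63 ± 0.13 (limma adjusted p = 0.0173), a call lost in 5 of the 8 fits without 1 animal. Most microRNA probe sets were dim. Of the 15 genes of the list with a mean log2 of at least 5, 4 were called under DEHP, all higher in null livers. Of all genes, dim ones included, 5.09% were called higher there, and the share among genes of that brightness is not given.

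**Figure D4:**
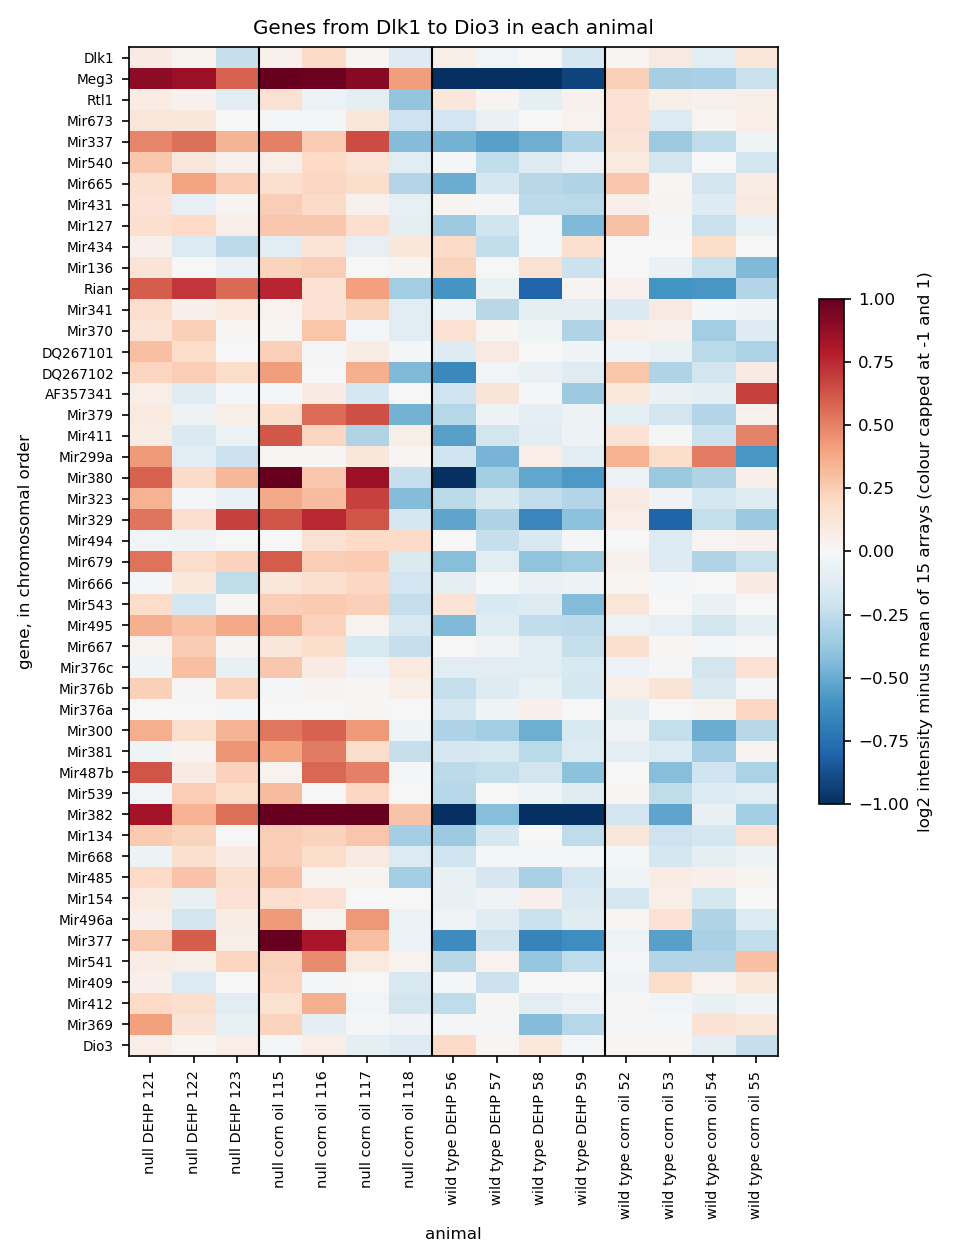
Log2 intensity of each of the 48 genes from Dlk1 to Dio3 (rows, chromosomal order) in each of 15 animals (columns, by group), minus the gene's mean over all arrays. Red is above and blue below that mean, and colour is capped at -1 and 1. Null columns are mostly red except the last null corn oil animal, which was the lowest of its group in 32 of the 45 genes other than Meg3, Rian and Dlk1.

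The null corn oil animal with a Meg3 intensity of 498.23 stood apart from its group across the domain. It had the lowest Meg3, Rian and Dlk1 of the 4 null corn oil livers and was lowest in 32 of the 45 other genes. Without it 9 of the 45 were called higher in null livers with corn oil, in place of 2. Leaving out another corn oil animal gave 0 to 3.

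Like Dlk1, the other paternally read coding genes showed no called difference. Rtl1, a retrotransposon-derived gene read from the strand opposite to its microRNAs, had a null minus wild-type difference of -0.02 ± 0.10 (log2, SE) under DEHP and -0.17 ± 0.09 with corn oil. Dio3, the enzyme that inactivates thyroid hormone, gave -0.03 ± 0.08 and 0.02 ± 0.07. Neither gene was called in any of the 4 comparisons, and the groups overlapped in each.

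Genes on either side of the domain were measured to see whether the difference ran past it. Of 15 flanking genes, 2 were higher in null livers under DEHP, Slc25a47 (a liver mitochondrial carrier) by 0.32 ± 0.09 and Dync1h1 (the dynein heavy chain) by 0.30 ± 0.08. Ppp2r5c, a regulatory subunit of protein phosphatase 2A, was lower, with a difference of -1.15 ± 0.09 (limma adjusted p = 6.63e-07). The 12 others were not called, and the median of the 15 was -0.03 (log2). The 3 calls stand beside 10.7% of all genes called. With corn oil Ppp2r5c was also lower in null livers, with a difference of -0.42, and was the 1 call among the 15, where 1.19% of all genes were called. In wild-type livers with DEHP Ppp2r5c rose by 0.95 ± 0.08 and Slc25a47 fell by 0.63 ± 0.09. These were 2 of the 15, where 3.86% of all genes were called. In null livers none of the 15 was called with DEHP, where 0.471% of all genes were.

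Of 40 measured imprinted genes of other domains, 3 were higher and 2 lower in null than in wild-type livers under DEHP, 12.5%, near the 10.7% of all genes. The zinc finger gene Peg3 was lower in null livers, with a difference of -0.68 ± 0.15 (log2, SE; limma adjusted p = 0.0084), and so was Commd1, with -0.52 ± 0.08. The tetraspanin Cd81 was higher by 0.29 ± 0.05 and Gatm, an enzyme of creatine synthesis, by 0.42 ± 0.10. In wild-type livers with DEHP Peg3 rose by 0.89 ± 0.14, and H13, a signal peptide peptidase, fell by 0.21 ± 0.05. These 2 of the 40, 5.0%, are near the 3.86% of all genes called there. In null livers 0 of the 40 were called with DEHP, where 0.471% of all genes were. With corn oil 0 were called between genotypes, where 1.19% of all genes were, so both counts of 0 are near the background. Igf2, an imprinted growth factor gene shut down in mouse liver after birth, had a mean log2 of 5.41 to 5.47 in every group.

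Genes that write and read DNA methylation or keep imprints numbered 18. Under DEHP the DNA methyltransferases Dnmt3a and Dnmt1 were higher in null livers, by 0.39 ± 0.08 (log2, SE; limma adjusted p = 0.0034) and 0.22 ± 0.06 (0.0192), and Rbbp7, a histone-binding subunit, was lower, with a difference of -0.25 ± 0.07. The 3 calls among 18 stand beside 10.7% of all genes. None of the 18 was called with DEHP in null (0.471% of all genes) or wild-type livers (3.86%) or between genotypes with corn oil (1.19%), and 0 of 18 is near those shares. Of 21 genes of the Notch pathway, to which Dlk1 is related, 0 were called in any comparison, beside the same shares of all genes. Rbpj, the DNA-binding partner of Notch, had the smallest p under DEHP, with a null minus wild-type difference of 0.23 ± 0.08 (adjusted p = 0.0804).

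Since the maternal RNAs of the domain are known to respond to CAR, 29 measured genes that CAR activators induce were set beside them. In null livers DEHP raised 8 of the 29, against 0.471% of all genes called, and lowered 0. Cyp2c55 rose by 2.08 ± 0.17 (log2, SE; limma adjusted p = 3.86e-05), Cyp2b10, the usual marker of CAR activity, by 1.55 ± 0.16 (0.000635), and Ces2a by 0.82 ± 0.13 (0.0213), in the livers where Meg3 differed by -0.13 ± 0.20. In wild-type livers DEHP raised 7 and lowered 3, where 3.86% of all genes were called, among them Cyp3a13 at 0.64 ± 0.11 and Slco1a4, an organic anion carrier, at -1.15 ± 0.20. The 8 that rose in null livers were all the calls of the lists there. With only the null groups in the fit the lists had 1 call with DEHP in null livers, and without 1 animal 3 to 7. Between genotypes 13 of the 29 were higher in null livers under DEHP and 0 lower, where 10.7% of all genes were called. These 13 had the direction of Meg3, led by Cyp2c37 at 1.82 ± 0.15. Cyp2b10 was not among them, and it was also not among the 10 genes called with DEHP in wild-type livers. With corn oil Gstm2 was higher in null livers, by 0.67 ± 0.12, and Cyp2b10 was lower, with a difference of -1.23 ± 0.15, where 1.19% were called. Nr1i3, which encodes CAR, had a mean log2 of 11.34, 11.33, 11.10 and 11.02 in null DEHP, null corn oil, wild-type DEHP and wild-type corn oil livers and was not called. With corn oil its intensity was 2312.97 to 2809.89 in null and 1937.72 to 2229.54 in wild-type livers. These groups did not overlap, higher in null livers, as for 809 of the 19938 genes. Under DEHP the Nr1i3 groups of the 2 genotypes overlapped.

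Liver cells near the central vein, where Wnt signalling is active, express a set of genes of which 20 were measured. Between genotypes 8 were higher in null livers under DEHP and 0 lower, where 10.7% of all genes were called, and 6 were higher and 1 lower with corn oil, where 1.19% were. Gulo, the last enzyme of vitamin C synthesis, was higher by 0.93 ± 0.07 (log2, SE) under DEHP and 0.33 ± 0.07 with corn oil, and Oat, ornithine aminotransferase, by 0.77 ± 0.15 with corn oil. Glul, glutamine synthetase, was higher by 0.35 ± 0.09 and 0.38 ± 0.08. With DEHP 3 of the 20 were lower in wild-type livers, Gulo (-0.52 ± 0.07), the Wnt inhibitor Notum (-0.43 ± 0.08) and Cyp1a2 (-0.32 ± 0.08), where 3.86% of all genes were called, and none was called in null livers. Of 11 periportal genes, 4 were lower with DEHP in wild-type livers, and 2 were higher and 1 lower in null than in wild-type livers under DEHP, beside the same shares.

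**Figure D5:**
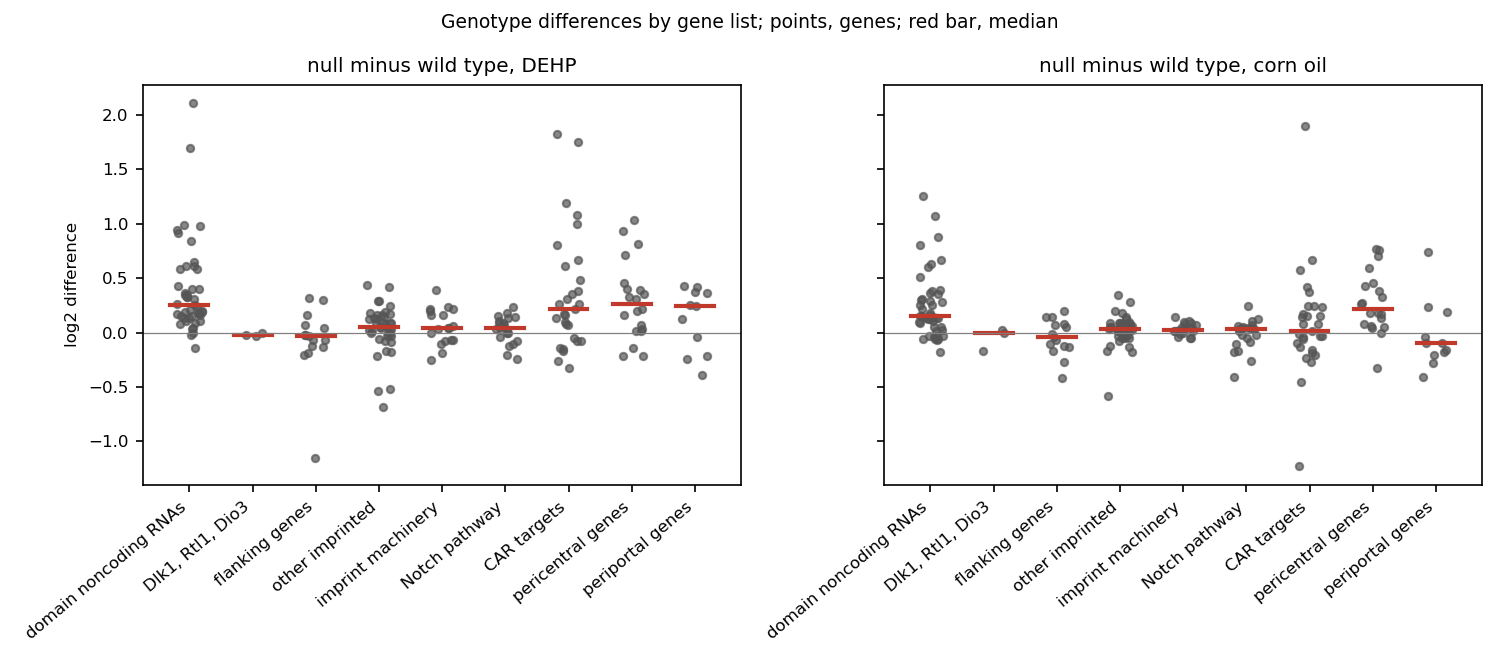
Null minus wild-type differences (log2) of single genes by list, under DEHP (left) and with corn oil (right), with the list's median as a red bar. The first column, all noncoding genes of the domain, holds Meg3 at 2.11 under DEHP, and Dlk1, Rtl1 and Dio3 lie at 0.02 or below in both panels.

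Cell markers moved with some of these differences, and their part in them was not tested. All 12 stellate cell and fibroblast markers had a null minus wild-type difference above 0 in both treatments, where 56.8% of all genes were above 0 under DEHP and 46.8% with corn oil. Under DEHP 3 were called, Reln, Dcn and Pdgfrb, and with corn oil 1, Col1a2, beside 10.7% and 1.19% of all genes. Their summed intensity was 3253.4 to 4417.4 in null DEHP, 3601.7 to 4883.8 in null corn oil, 2852.0 to 3020.9 in wild-type DEHP and 2895.0 to 3173.2 in wild-type corn oil livers, so the null range lay above the wild-type range as for Meg3. All 12 endothelial markers were also above 0 under DEHP, and 8 were called, while with corn oil 8 of the 12 were above 0 and 0 were called. Their sum was 4374.4 to 4801.5, 4114.6 to 4412.8, 3431.8 to 3844.9 and 3990.7 to 4510.5 in the same order of groups, lowest in wild-type DEHP livers. With DEHP 4 of the 12, Stab2, Tie1, Fcgr2b and Eng, fell in wild-type livers (Stab2 by 0.33 ± 0.06), where 3.86% of all genes were called. All 11 Kupffer cell markers were above 0 in both genotype comparisons, and 1, Csf1r, was called, under DEHP. Of 7 bile duct cell and hepatoblast markers, 1 was above 0 under DEHP and 4 with corn oil, and 0 were called between genotypes. Of 10 lymphocyte, neutrophil and red cell markers, 7 were above 0 with either treatment. Of these 10, Ly6g and Alas2 were called higher in null livers under DEHP and Ptprc with corn oil, beside the same shares of all genes. Summed hepatocyte markers spanned 86361.6 to 95071.3 over all arrays. In whole liver, fewer cells of a type and less RNA per cell cannot be told apart.

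Genes with a pattern like that of Meg3 were sought among 9859 others with a mean log2 of at least 6. The highest Pearson r over the 15 arrays belonged to Gulo (0.97), Lrtm1 (0.951), Lect2 (0.948), Ppp1r14a (0.939), Apoa4 (0.939) and Gstm2 (0.928). Gulo and Lect2, a secreted liver protein, are also in the pericentral set. The lowest r belonged to Tomm70a (-0.976), a mitochondrial import receptor, Hadhb (-0.971), a subunit of the enzyme complex of mitochondrial fatty acid oxidation, and Dhrs4 (-0.968), a reductase. With group means removed, the amino acid transporter Slc1a4 was first (0.856), followed by Ip6k2 and Adamtsl2 (0.832 each), Oat (0.815), Ankrd33b (0.811) and Arhgef19 (0.801). Slc1a4 was also the gene most like Rian (r = 0.918), before Gstm3 (0.898) and the sphingomyelinase Smpd3 (0.888). With no filter on intensity, Mir382 ranked 3 (r = 0.951) among 19937 genes. The arrays share the 4 groups, so such r follow the group differences, and they carry no test.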

How the data were processed

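Liver RNA (300 ng per mouse) was labelled with an Affymetrix whole-transcript kit and hybridised to 1 array per mouse, per the labels' protocols. The authors deposited 1 intensity per probe set and array, linear and already on a common scale. How background was corrected, probes summarised and arrays normalized, and on which genome build, the labels used here leave unstated. The annotation paired 21789 of the 35494 probe sets with a single symbol and 1621 with more than 1, and left 12084 unnamed. Per gene, the probe set with 1 symbol and the highest mean log2 was kept, which left 19938 genes.

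Log2 intensities were fitted with limma 3.58.1 in R 4.3.3 (lmFit with 1 mean per group over all 15 arrays, eBayes), and p-values were adjusted by Benjamini-Hochberg over all genes at 0.05. The fit was tested on simulated data. Arrays came from separate animals, and their number limits the precision. The labels give no batch. Gene names come from the platform annotation, checked against RefSeq, from which sequences and gene order were also taken.

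The members and lists were chosen with earlier results of these data known. The list of 45 domain genes and the likeness of members to each other were added after values had been seen. Named genes were the members, the domain and flanking genes, up to 4 called genes per other list and comparison (the one with the smallest p where none was called), and the genes most like Meg3 or Rian. Glul, Igf2 and a few others were named for their textbook role after their values were seen. Alternatives were quantile normalization, only the groups compared, a filter on dim genes, other choices of probe set, a mean-variance trend and leaving out each animal.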

Additional observations from a re-analysis of the deposited data

Results flagged for a closer look

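In 144 groups of 4 animals (48 genes of the domain, 3 groups each), 14 had 1 animal set apart from the other 3 by Dixon's criterion at 95%, which scales the gap by the range. Some flags rest on tied values and small gaps, as for Mir376a, at a log2 of 2.02 beside 2.0 in the others. Chance flags about 1 in 20 such groups where values are not tied. Genes of the domain share their animals, so the 144 groups are not independent, and the count of 14 was not tested. A narrower scan, over the members, Rtl1, Dio3 and the called microRNA genes, was tried after these 14 had been seen, and the full scan is given. The null corn oil animal with the lowest Meg3 was the lowest of its group, in log2 intensity, for Mir665 (5.87), Mir329 (4.32), Mir543 (3.57) and Mir134 (6.0), and the one with a Meg3 intensity of 700.3 was the highest for Mir299a (3.11) and Mir376a (2.02). In wild-type DEHP livers animal 56 was lowest for DQ267102 (5.21), Mir379 (2.05) and Mir668 (5.88), animal 59 lowest for Mir376c (1.61), and animal 57 highest for Mir377 (3.51) and lowest for Mir409 (4.33). In wild-type corn oil livers animal 54 was highest for Mir434 (2.59) and animal 52 for Mir667 (7.58). None of the 3 members had such an animal.

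The DEHP difference itself differed between genotypes for 12 genes (limma interaction, adjusted p below 0.05), 8 of the gene lists, 2 flanking genes and 2 cell markers, where 0.898% of all genes were called. They were 5 of 29 genes induced by CAR activators, 2 of 20 pericentral, 1 of 11 periportal, 2 of 15 flanking and 2 of 12 endothelial genes. No gene of the other imprinted, DNA methylation and imprint, Notch or remaining cell marker lists was called. Among genes induced by CAR activators the null minus wild-type difference of the DEHP differences was 1.09 (log2) for Cyp2b10, 0.53 for Cyp2c29, 1.40 for Cyp2c37, 1.04 for Cyp2c54 and 1.54 for Cyp2c55. It was 0.63 for Cyp1a2 and 0.61 for Gulo among pericentral genes, 0.55 for the periportal gene Hal, and 0.43 for Stab2 and 0.53 for Fcgr2b among endothelial markers. Of the flanking genes it was 0.59 for Slc25a47 and -0.72 for Ppp2r5c.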

How the results depend on the processing

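Animals were left out only from the groups compared. Called or described differences of the 3 members kept their direction and side of the threshold under quantile normalization, a fit of the compared groups only, a filter on dim genes, other choices of probe set and a mean-variance trend. The filter gave no value for Rian, whose mean log2 was below 5. Without 1 animal, Rian between genotypes under DEHP was 0.83 to 1.11 (log2), not called without the null DEHP animal of highest Rian (0.94). Uncalled differences near 0 changed sign among these fits: Meg3 with DEHP in null livers was -0.29 to 0.01, Dlk1 there -0.13 to 0.03, Rian with DEHP in wild-type livers -0.12 to 0.15, and Dlk1 between genotypes -0.06 to 0.09 under DEHP and -0.06 to 0.05 with corn oil. Counts moved more. With DEHP in null livers 161 genes were called under quantile normalization, 1 with only the groups compared, 281 with the filter and 274 with the trend, in place of 94, and 9 to 168 without 1 animal. Between genotypes under DEHP 1331 genes were called with only the groups compared, in place of 2133, and 1019 to 1950 without 1 animal, and the interaction called 445 with the filter and 404 with the trend, in place of 179, and 61 to 299 without 1 animal. With DEHP in wild-type livers the count was 433 to 614 without 1 animal, in place of 770. Of the 45 domain genes 4 were called under DEHP with the filter, which removes 30 of them, and 7 to 12 without 1 animal, in place of 13. With corn oil 1 was called with only the groups compared and 0 with the filter or with all probe sets tested, and 0 to 9 without 1 animal, in place of 2. In wild-type livers 0 to 1 were called with DEHP without 1 animal. List members called, over the lists other than the domain, flanking and cell marker ones, numbered 12 with all probe sets and 9 to 16 without 1 animal for DEHP in wild-type livers (19 otherwise), and 5 under quantile normalization, 1 with only the groups compared and 3 to 7 without 1 animal for DEHP in null livers (8). They numbered 18 to 29 without 1 animal between genotypes under DEHP (32), 5 with all probe sets and 5 to 14 without 1 animal with corn oil (10), and 15 with the filter, 15 with the trend and 4 to 10 without 1 animal for the interaction (8). By Spearman rank 3 of the 6 genes most like Meg3 were shared. Beyond the settings that use fewer samples or genes, the cause was not tested. No paired analysis was possible because the animal numbers are unique and pair no animals across groups. Dim probe sets, Rian and most microRNA genes among them, have an unknown distance from background.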
